A study of Homo sapiens with 4 samples.

Results

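The keratin genes KRT7, KRT8, KRT10, KRT18, KRT19, KRT80, KRT81 and KRT86 were followed in the RNA of SKBR3, an established line of HER2-amplified breast cancer cells. They are the keratins of luminal breast epithelium together with the hair-type keratins of this line, and were taken by gene symbol as 8 of the 56271 rows of the count table. Poly-A RNA was sequenced in 2 libraries of cells transduced with a lentiviral eGFP vector (eGFP control) and in 2 libraries of cells transduced with full-length VIRMA (VIRMA-overexpressing), so both groups carry the vector backbone and express eGFP. VIRMA is a scaffold of the RNA methyltransferase complex that deposits N6-methyladenosine (m6A), and the comparison asks how raised VIRMA alters the transcript levels of the line. In the study's methods the transduced cells were sorted for eGFP and expanded, with the control eGFP driven by the ubiquitin C promoter and VIRMA carrying an HA tag behind eGFP and a p2A peptide. The libraries are biological duplicates of such sorted cells, and how far separate transductions would differ was not measured. The culture text on all 4 libraries describes a low-oxygen chamber, whereas the study treats its mRNA sequencing as ordinary culture, so the oxygen level is uncertain.

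Keratins are the intermediate filament proteins of epithelial cells. A filament is built from pairs of an acidic type I chain and a basic or neutral type II chain, and a chain without a partner is generally degraded. KRT8 and KRT18 are the founding pair of simple epithelia and, with KRT7 and KRT19, mark the luminal cells of the breast, whereas KRT5 and KRT14 mark its basal cells. KRT81 and KRT86 are type II keratins of the hair shaft that are also transcribed in some breast cancers. The type II genes lie in a cluster on chromosome 12 and the type I genes on chromosome 17, apart from KRT18, which sits beside KRT8 on chromosome 12.

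In the GRCh38 coordinates of the deposited table, the type II gene KRT80 lies at chr12:52168996-52192000 on the minus strand, KRT7 at chr12:52232520-52252186 on the plus strand and KRT8 at chr12:52897187-52949954 on the minus strand. The type I gene KRT18 lies at chr12:52948871-52952901 on the plus strand, KRT10 at chr17:40818117-40822595 and KRT19 at chr17:41523617-41528308, both on the minus strand. Their canonical GENCODE v44 transcripts have 6 exons in KRT19, 7 in KRT18, 8 in KRT8 and KRT10, and 9 in KRT7 and KRT80.

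The libraries held 85389375 and 86375474 counts in eGFP control cells, compared with 82942841 and 81446932 under VIRMA overexpression. VIRMA, listed under its older symbol KIAA1429, had 710 and 682 counts in the control pair and 3437 and 3460 with VIRMA raised, a log2 fold change of 2.29 (SE 0.069, adjusted p = 9.74e-26 in edgeR's quasi-likelihood test). It was under RPKM 1 in both controls and entered the test through the VIRMA-overexpressing group. Mitochondrial genes took 11.4% to 11.6% of the control counts and 12.8% of those with VIRMA raised. Of 10 luminal markers, 8 had RPKM above 1 in at least 2 libraries, and the summed RPKM of the list (reads scaled to exon length in kilobases and to library total) was 1179 to 1203 in the controls and 1289 to 1291 in the VIRMA-overexpressing cells. The luminal marker CDH1 was near 0, with RPKM between 0.0094 and 0.066. None of 10 basal markers passed that level, and their summed RPKM was 1.73 to 1.93 and 1.34 to 1.36. Of 10 mesenchymal markers, FN1 and COL1A1 passed it, COL1A1 through the controls only, at RPKM 1.33 and 1.29 against 0.875 and 0.927. The summed RPKM of the list was 4.46 to 4.77 in the controls and 3.10 to 3.29 in the VIRMA-overexpressing cells. CDH2 was at 0 in all 4 libraries. Of 10 blood markers only HBB passed, with 2137 and 1543 control counts against 0 in either library with VIRMA raised, and the part of these marker differences in the keratin results was not tested.

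All 8 keratins had RPKM above 1 in all 4 libraries, and all were tested. Together they took 2.20% and 2.16% of the control counts and 2.28% and 2.31% of the VIRMA-overexpressing counts. By share of counts the total was thus close in the groups, though higher in both VIRMA-overexpressing libraries, while its make-up differed. As summed RPKM on the deposited exonic lengths it was 6333 and 6217 in the controls and 7148 and 7257 with VIRMA overexpression. KRT8 made up 36.8% and 37.0% of the pooled keratin counts in the controls and 26.2% and 26.0% with VIRMA overexpression. KRT81 went from 5.47% and 5.68% to 12.1% and 12.5%, and KRT7 from 12.5% and 12.3% to 17.5% and 17.6%. The shares of KRT18 and KRT19 moved less, at 14.2% in each control against 15.0% in each VIRMA-overexpressing library for KRT18, and 29.5% and 29.2% against 27.4% and 27.0% for KRT19. In bulk RNA, fewer cells that express a gene and less of its RNA per cell cannot be told apart.

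**Figure D1:**
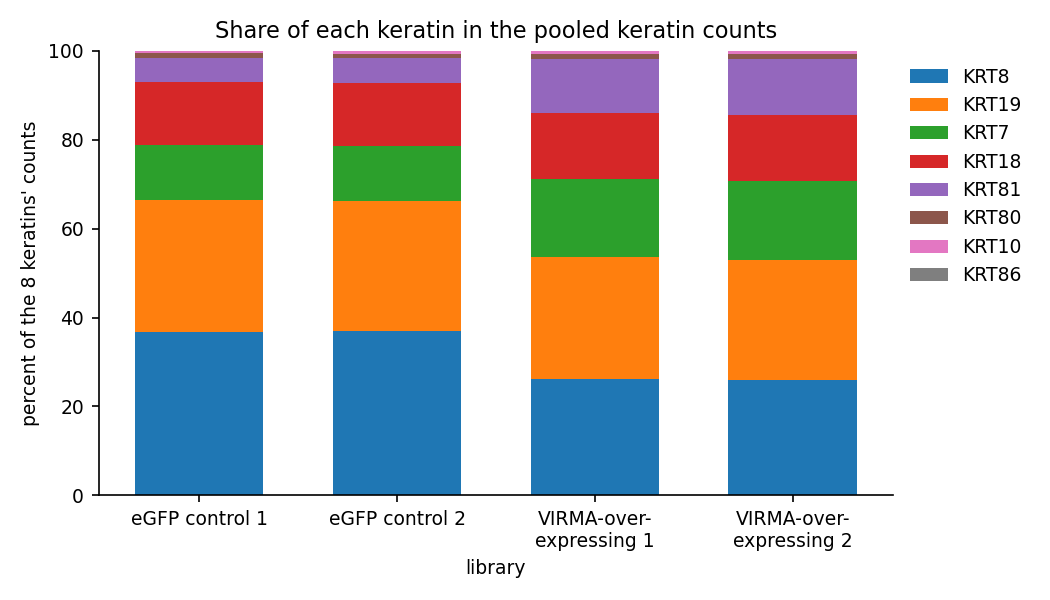
Each bar is 1 library and adds up the percent of the pooled counts of the 8 keratins that each gene took, by count and not per length. The KRT8 block takes 36.8% and 37.0% in the controls and 26.2% and 26.0% with VIRMA overexpression, and the KRT81 block goes from 5.47% and 5.68% to 12.1% and 12.5%.

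At an adjusted p below 0.05, from edgeR's quasi-likelihood test with Benjamini-Hochberg adjustment over 12205 genes, 6 of the 8 keratins were higher and 2 were lower in VIRMA-overexpressing cells. This call was common in the whole table, where 35.1% of tested genes were called higher and 35.9% lower, so the number of keratins called says little on its own. With a log2 fold change above 1 as well, 2 keratins were higher (KRT81 and KRT86) against 4.52% of all tested genes, and 0 were lower against 2.93%. In CPM (counts scaled to effective library size), 7 of the 8 had groups that did not overlap, against 84.3% of all tested genes. The median log2 fold change of the 8 was 0.13, and that of all tested genes was 0.01.

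**Figure D2:**
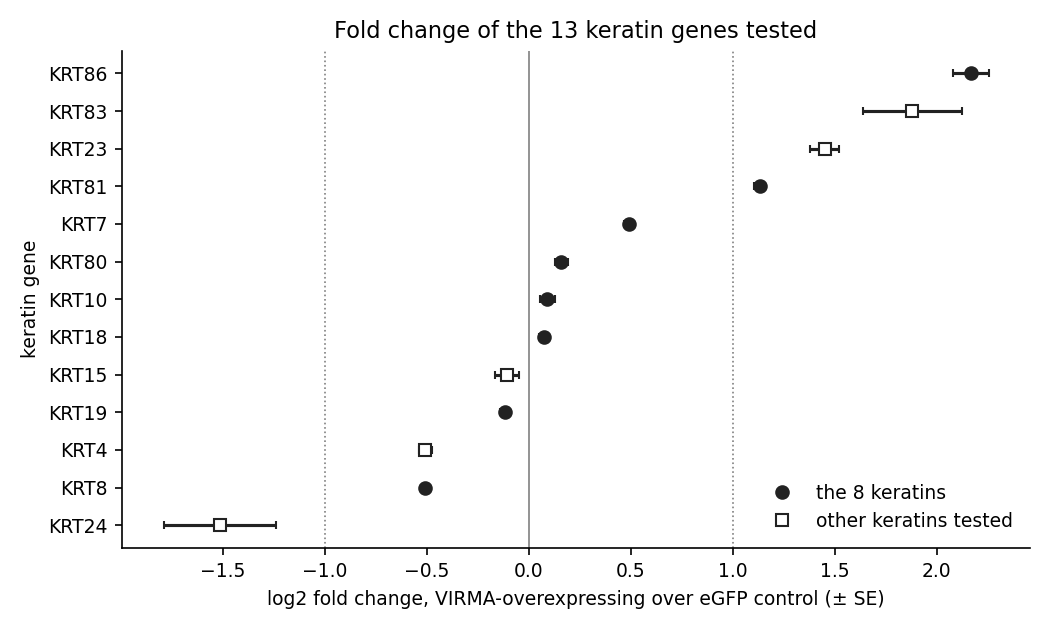
Points are log2 fold changes of VIRMA-overexpressing over eGFP control cells for the 13 keratin genes tested, with bars of 1 SE, filled for the 8 keratins and open for the others, and dotted lines at a log2 fold change of 1 and -1. KRT86 and KRT81 lie above 1, KRT8 and KRT4 near -0.51, and KRT18, KRT10, KRT19 and KRT80 between -0.12 and 0.16.

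KRT8, the type II partner of KRT18, was the keratin with the most counts in the controls and fell. It had 691720 and 690984 counts in the controls against 495684 and 488685 in VIRMA-overexpressing cells. Every VIRMA-overexpressing library was below every control, at 5874 ± 40.8 CPM against 8368 ± 43.3 CPM (mean ± SD, n = 2 in each group here and for every CPM below). The log2 fold change was -0.51 (SE 0.020, adjusted p = 1.70e-22). By count KRT8 ranked 8th of all genes in both controls, and 11th and 12th in the VIRMA-overexpressing libraries. The call and the direction held under every alternative tried.

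KRT7, another type II keratin of simple ducts and glands, moved the other way. Its counts were 234015 and 230499 in eGFP control cells, compared with 330538 and 331447 under VIRMA overexpression. The groups did not overlap, at 2811 ± 42.5 CPM and 3951 ± 74.9 CPM. The log2 fold change was 0.49 (SE 0.023, adjusted p = 3.26e-20), similar in size to that of KRT8 and of opposite sign. Within a library, KRT7 had 33.8% and 33.4% as many counts as KRT8 in the controls and 66.7% and 67.8% with VIRMA overexpression.

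The type I keratins of simple epithelium changed little. KRT18, the partner of KRT8, had 266559 and 264387 counts in the control pair and 284385 and 282756 with VIRMA raised. Its CPM was 3213 ± 32.8 and 3385 ± 43.8, with no overlap, and its log2 fold change was 0.075 (SE 0.022, adjusted p = 0.00317). That call was lost with 3 other filters on low counts (log2 fold change 0.031 to 0.045, adjusted p = 0.0746 to 0.194). The scaling was refitted under each filter, and the median of all tested genes then shifted by -0.030 to -0.044. Without the second VIRMA-overexpressing library the log2 fold change was 0.062.

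KRT19, the smallest keratin and one that lacks the usual tail domain, had 555015 and 544981 counts in the controls against 518748 and 509004 in VIRMA-overexpressing cells. Both VIRMA-overexpressing libraries were below both controls, at 6133 ± 22.1 CPM against 6657 ± 115 CPM. The log2 fold change was -0.12 (SE 0.020, adjusted p = 3.49e-06), and it was -0.033 (adjusted p = 0.139) when libraries were scaled by their totals alone.

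KRT80 and KRT10, keratins known mainly from stratified or differentiating epithelium, had far fewer counts than the simple-epithelial keratins. KRT80, a type II keratin, had 17682 and 17959 counts in eGFP control cells, compared with 20220 and 20142 under VIRMA overexpression. Its groups were apart, at 216 ± 1.42 CPM and 241 ± 3.44 CPM, with a log2 fold change of 0.16 (SE 0.031, adjusted p = 2.69e-05). KRT10, the type I keratin of the suprabasal epidermis, had 11084 and 11935 counts in the control pair and 12200 and 12670 with VIRMA raised. It was the keratin whose groups overlapped in CPM, since the second control, at 144.0, was above the first VIRMA-overexpressing library, at 143.9. Its log2 fold change of 0.092 (SE 0.037, adjusted p = 0.0258) was not called by DESeq2 (adjusted p = 0.0775), with 3 other filters (adjusted p = 0.173 to 0.341), without the first control (adjusted p = 0.407) or without the second VIRMA-overexpressing library (adjusted p = 0.347).

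Of the 8 keratins, the hair-type KRT81 and KRT86 rose most. KRT81, which in the hair pairs with acidic hair keratins, had 102706 and 106045 counts in the controls against 228548 and 235268 in VIRMA-overexpressing cells. Its CPM was 1263 ± 23.0 and 2769 ± 104, a 2.19-fold difference with a log2 fold change of 1.13 (SE 0.026, adjusted p = 2.61e-29). Of all tested genes, 5.51% had a larger fold change in either direction. By count KRT81 moved from rank 79 and 76 among all genes to rank 31 and 27.

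KRT86, its near relative, was scarce. It had 442 and 427 counts in eGFP control cells, compared with 2062 and 1896 under VIRMA overexpression. The groups were far apart, at 5.26 ± 0.152 CPM and 23.6 ± 0.999 CPM, a 4.49-fold difference with a log2 fold change of 2.17 (SE 0.087, adjusted p = 6.49e-22). Of all tested genes, 0.639% had a larger fold change in either direction. Tested against a 1.5-fold change in place of no change, KRT81 and KRT86 were the keratins of the 8 that passed.

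KRT81 and KRT86 are close copies, so their counts need care. On the same build, KRT86 spans chr12:52249300-52309163 on the plus strand, and KRT81, at chr12:52285913-52291534 on the minus strand, lies inside that span without sharing an exon base. Their coding sequences in the canonical GENCODE v44 transcripts were 93.6% identical over 1457 aligned bases. The first and the last 30 coding bases of each are given below, with the bases that differ between the pair in capitals.

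KRT81, first 30 coding bases, chr12:52291436-52291465, minus strand: atgacCtgCggatcAGGAtTtggtggGcgc
KRT86, first 30 coding bases, chr12:52301917-52301946, plus strand: atgacTtgTggatcTTACtGtggtggCcgc
KRT81, last 30 coding bases, chr12:52286255-52286284, minus strand: TCTtgcggcAgcagctgCCGgaAAtgTtag
KRT86, last 30 coding bases, chr12:52308556-52308585, plus strand: GTCtgcggcGgcagctgTAAgaGGtgCtag

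The pair differed at 8 of 30 bases at the start and at 10 of 30 at the end. These ends differed more than the coding sequence as a whole, which was 93.6% identical, so they do not stand for the rest of it. Over the whole canonical transcript, 29.4% of the 100-base stretches of KRT81 also occur in a KRT86 transcript, and 25.0% of those of KRT86 occur in KRT81. The study's reads were paired and longer than 100 bases. Such percentages, here and below, thus describe the sequence and are not the share of reads that cannot be assigned. How the authors' counting treated reads with several alignments is not given in the sources used here. KRT86 had 0.430% and 0.403% as many counts as KRT81 in the controls and 0.902% and 0.806% with VIRMA overexpression. The log2 ratio of KRT86 to KRT81 was thus higher by 1.03 in the VIRMA-overexpressing cells, and the part of shared reads in the KRT86 counts was not tested. In an exact two-sided permutation test this gave p = 0.333, the smallest that 2 libraries against 2 allow. The sum of both genes changed as KRT81 did, with a log2 fold change of 1.14. Reads of KRT83, another hair-type keratin with a coding sequence 93.3% identical to that of KRT81, are subject to the same doubt.

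Other keratins of the 8 share sequence or exons with neighbours too. Exons of KRT8 and KRT18 overlap by 525 bases on opposite strands, and 18.5% of the 100-base stretches of the KRT18 transcript match a KRT8 transcript on either strand. The search for such stretches, here and above, took both strands, so an overlap on opposite strands counts as a match. The kit was stranded, but whether the counting used strand is not given in the sources used here. KRT8 has 50 pseudogene rows, whose summed counts were 0.447% to 0.565% of the KRT8 counts, and KRT18 has 67 rows with 0.134% to 0.183%. Adding these counts to the parents left the log2 fold change of KRT8 at -0.51 and that of KRT18 at 0.076. KRT10, KRT19 and KRT80 shared no 100-base stretch with another annotated gene.

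The antisense gene KRT7-AS, listed under its clone name RP3-416H24.1 at chr12:52245048-52247448, overlaps KRT7 exons by 282 bases on the opposite strand, and without strand in the counting such reads cannot be told apart. It had 4344 and 4418 counts in the control pair and 9549 and 9019 with VIRMA raised, a log2 fold change of 1.06 (SE 0.039, adjusted p = 4.98e-23), where KRT7 had 0.49. As a percent of KRT7 counts it was 1.86% and 1.92% in the controls and 2.89% and 2.72% with VIRMA overexpression. The other rows that overlap exons of the 8 keratins did so by 56 bases or fewer. TMEM99, opposite KRT10, had 2263 and 2196 counts against 2598 and 2407, with a log2 fold change of 0.15 (adjusted p = 0.0306). KRT87P, opposite KRT7, had 391 and 361 counts against 480 and 388 (log2 fold change 0.19, adjusted p = 0.249). Opposite KRT86, RP11-845M18.6 had 10 and 19 counts against 81 and 79 (log2 fold change 2.43, SE 0.45, adjusted p = 1.11e-05), a row that entered the test through the VIRMA-overexpressing group only, being under RPKM 1 in both controls. RP11-845M18.7, which was not tested, had 11 and 9 against 15 and 4.

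Levels of different keratins were compared per length, as RPKM on the exonic lengths of the deposited table. In the controls the order was KRT19 (2782 and 2701), KRT8 (1177 and 1163), KRT18 (970.1 and 951), KRT7 (669.6 and 652), KRT81 (624 and 636), KRT10 (60.5 and 64.4), KRT80 (47.6 and 47.8) and KRT86 (2.16 and 2.06). KRT7 and KRT81 were neighbours in this order whose values did not overlap. In the VIRMA-overexpressing cells it was KRT19 (2677 and 2675), KRT81 (1428 and 1497), KRT18 (1065 and 1079), KRT7 (974 and 994), KRT8 (869 and 872), KRT10 (68.6 and 72.6), KRT80 (56.0 and 56.9) and KRT86 (10.4 and 9.72). KRT81 thus moved above KRT18, KRT7 and KRT8, and KRT8 below KRT18 and KRT7.

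**Figure D3:**
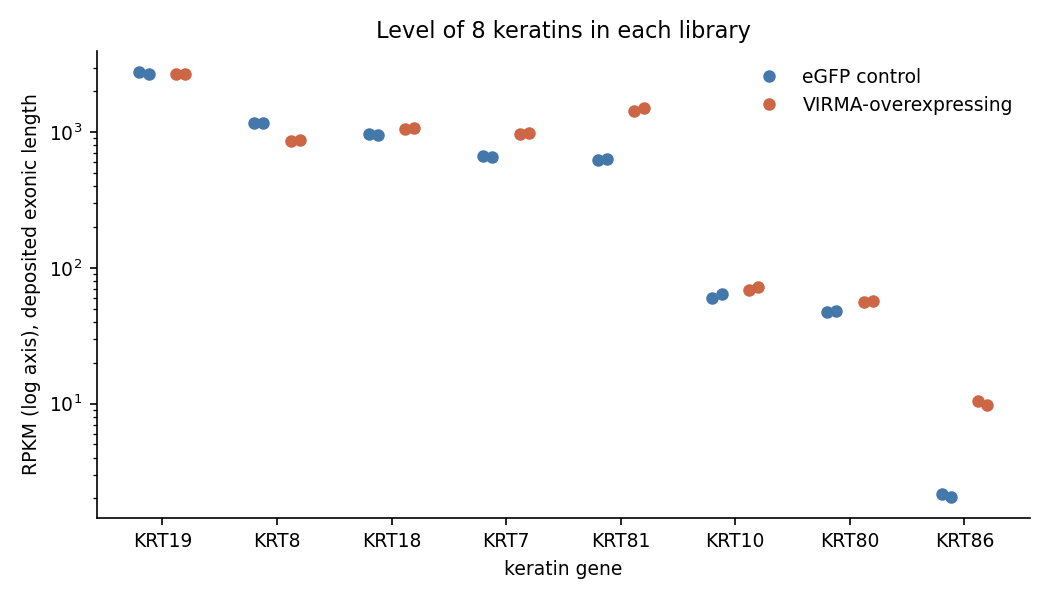
Points are RPKM of each keratin in each library on a log axis, in the order of the control means, with eGFP control libraries in blue and VIRMA-overexpressing libraries in orange. KRT8 lies lower and KRT7, KRT81 and KRT86 higher in both VIRMA-overexpressing libraries, and replicates nearly coincide.

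That order rests on the length used, since the table gives KRT8 an exonic length of 6881 bases over all its transcripts, against 1784 bases in its canonical transcript, and KRT81 1929 by both. With canonical lengths, KRT8 had RPKM of 4541 and 4484 in the controls against 3350 and 3363 in VIRMA-overexpressing cells, second to KRT19 in both groups. In the controls it overlapped KRT19, which was at 4676 and 4539. KRT7, at 2452 and 2504, and KRT18, at 2427 and 2457, then overlapped in the VIRMA-overexpressing cells, and KRT81 was below KRT19, KRT8, KRT18 and KRT7 in both groups. Differences of 1 gene between groups do not depend on its length.

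Because filaments need both chain types, the type II members (KRT7, KRT8, KRT80, KRT81 and KRT86) were set against the type I members (KRT10, KRT18 and KRT19). The ratio of their summed RPKM was 0.661 and 0.673 in eGFP control cells, compared with 0.876 and 0.896 under VIRMA overexpression. The groups did not overlap, and the log2 ratio was higher by 0.41 with VIRMA overexpression (exact two-sided permutation p = 0.333, the smallest the design allows). The type I sum was 3813 and 3717 RPKM against 3811 and 3827. With canonical lengths the ratio was 0.994 and 1.01 against 1.04 and 1.06, a log2 difference of 0.071. Without KRT81 and KRT86 it was 0.497 and 0.501 against 0.498 and 0.503, with overlapping groups (log2 difference 0.004, exact permutation p = 0.667).

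Within the classical pair the ratio differed the other way. KRT8 had 1.21 and 1.22 times the RPKM of KRT18 in the controls and 0.815 and 0.808 times in the VIRMA-overexpressing cells. By count KRT8 was at 259.5% and 261% of KRT18 in the controls and at 174% and 173% in the VIRMA-overexpressing cells. The log2 ratio was lower by 0.59 in the VIRMA-overexpressing cells (log2 difference -0.59, exact two-sided permutation p = 0.333), and that difference does not depend on length.

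The 8 keratins held at least 98.5% of the counts of the 55 keratin genes in every library. Of the other 47, 5 were tested. KRT83, a hair-type keratin beside KRT81, had 56 and 71 counts in the control pair and 239 and 236 with VIRMA raised, with a log2 fold change of 1.88 (SE 0.24, adjusted p = 1.77e-08). KRT23, a type I keratin, rose from 888 and 884 to 2471 and 2442 (log2 fold change 1.45, SE 0.071, adjusted p = 1.77e-19). KRT4, the type II keratin of mucosal epithelia, fell from 22875 and 23279 to 16455 and 16492 (log2 fold change -0.51, SE 0.031, adjusted p = 1.35e-16). KRT24 had 164 and 174 counts against 70 and 50 (log2 fold change -1.51, SE 0.28, adjusted p = 9.47e-06). KRT83 and KRT24 entered the test through 1 group only, since the other was under RPKM 1 in both libraries. KRT15 had 2490 and 2431 counts against 2378 and 2265 (log2 fold change -0.10, SE 0.059, adjusted p = 0.115).

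The keratins of basal and other epithelia were scarce, and none of the following was tested in the main fit. KRT5 had 66 and 78 counts in the controls against 38 and 35 in VIRMA-overexpressing cells, and its partner KRT14 had 7 and 15 against 10 and 9. KRT17 had 169 and 185 against 86 and 84. KRT6A had 6 and 12 against 6 and 2, and KRT6B 15 and 13 against 7 and 3. KRT20, the keratin of intestinal epithelium, had 36 and 40 against 14 and 30. In an edgeR quasi-likelihood fit without the filter, KRT17 (log2 fold change -1.11, adjusted p = 5.18e-05) and KRT5 (-1.03, adjusted p = 0.0237) were lower. KRT14, KRT6A, KRT6B and KRT20 did not pass an adjusted p of 0.05 there. Of 110 rows of keratin-associated proteins, which bind keratins in the hair shaft, 2 were tested, KRTAP5-1 (log2 fold change 1.57, adjusted p = 4.24e-07) and its antisense KRTAP5-AS1 (log2 fold change 1.63, adjusted p = 7.18e-12). KRTAP5-AS1 entered the test through the VIRMA-overexpressing group only, and its span contains KRTAP5-1 on the opposite strand, so with strand use unknown their reads cannot be told apart.

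Along the type II cluster the keratins of the KRT80 end and those of the KRT18 end differed in direction, an order that was looked at after the values were seen and has no test. The cluster holds 19 rows with a mean of at least 10 counts over 784 kb, and untested rows were taken from a fit without the filter. All 11 rows from KRT80 to KRT75 had a log2 fold change above 0, among them KRT80, KRT7, KRT86 and KRT81. The median log2 fold change of all tested genes was 0.01. LINC00592 had 1 and 6 control counts against 18 and 17, and KRT75 had 5 and 9 against 18 and 13. Both, and KRT89P, reached the mean of 10 counts only through the VIRMA-overexpressing group, which partly set their direction. KRT86 and KRT83 are close in sequence to KRT81, and KRT7-AS shares exon bases with KRT7, so the 11 rows are not fully separate observations. Of the 8 rows from KRT5 to KRT18, 6 were below 0, among them KRT4 and KRT8, and KRT79 and KRT18 were above it. Of the rows outside the naming rule, KRT89P, a pseudogene beside KRT83, had 5 and 0 counts against 51 and 32 (log2 fold change 3.93 without the filter, adjusted p = 1.07e-06), and KRT78, next to KRT8, had 350 and 251 against 123 and 160 (log2 fold change -1.14, adjusted p = 4.83e-08). Of the untested rows, LINC00592, KRT75, KRT2, KRT3 and KRT79 did not pass an adjusted p of 0.05 in that fit. Among the tested rows, KRT87P did not pass it in the main test (adjusted p = 0.249).

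**Figure D4:**
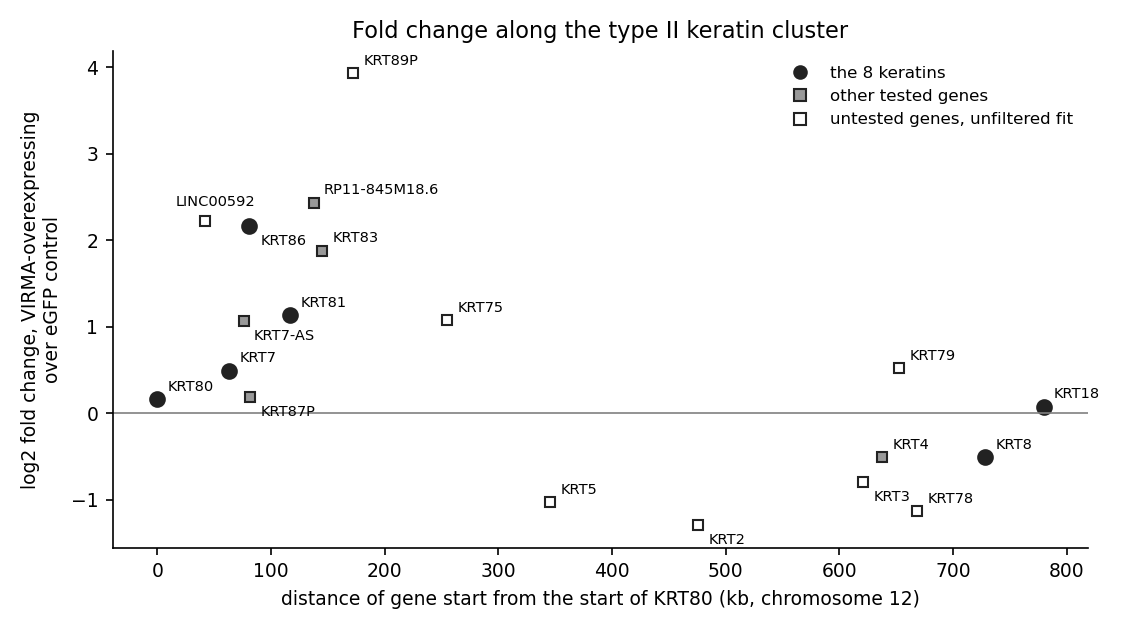
Log2 fold change of VIRMA-overexpressing over eGFP control cells against the distance of each gene's start from that of KRT80 in kb on chromosome 12, for rows with a mean of at least 10 counts, with circles for the 8 keratins and open squares for untested rows. The 11 rows from KRT80 to KRT75 are above 0, and 6 of the 8 rows further along are below it. LINC00592, KRT89P and KRT75 reached that mean only through the VIRMA-overexpressing group.

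The canonical transcripts of the 8 keratins differ in how often they hold GGACT, a common core of the m6A motif, read on the transcript strand. KRT80 held 7 copies (1.81 per kb), KRT81 3 (1.56 per kb), KRT86 3 (1.34 per kb) and KRT18 2 (1.42 per kb). KRT7, KRT8 and KRT19 held 1 each, at 0.615, 0.561 and 0.719 per kb, and KRT10 held 0. Of 89067 protein-coding transcripts, 77.5% held at least 1, with a median of 0.953 per kb. That background takes all protein-coding isoforms of each gene and not the canonical transcript alone, so the sets are not alike. A match describes the sequence and is not a measured m6A site.

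The structures that keratins attach to were examined through lists of genes. Of 19 desmosome and plakin linker genes, which tie keratin filaments to cell junctions, 12 were tested, of which 2 rose and 8 fell, where 35.1% of all tested genes were called higher and 35.9% lower, with a median log2 fold change of -0.32 against 0.01 for all tested genes. The plakophilin PKP1 fell from 31.2 ± 1.73 to 16.0 ± 0.377 CPM (log2 fold change -0.96, adjusted p = 3.50e-15), the desmosomal protein PERP from 85.5 ± 0.951 to 56.6 ± 2.26 CPM (-0.59, adjusted p = 3.44e-15) and the plakin EVPL from 268 ± 4.96 to 180.0 ± 2.39 CPM (-0.58, adjusted p = 4.84e-18). The catenin-related PKP4 (0.36, adjusted p = 8.79e-10) and the desmocollin DSC2 (0.19, adjusted p = 8.15e-04) rose. Of the 4 hemidesmosome genes, 2 were tested and both fell, where 35.9% of all tested genes did, ITGB4 with a log2 fold change of -0.44 (adjusted p = 5.58e-12) and CD151 with -0.094 (adjusted p = 0.00466), the latter not called with upper-quartile factors, library totals or the first VIRMA-overexpressing library left out.

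Of 18 chaperones, kinases, ligases and proteases linked to keratins, 17 were tested, of which 3 rose and 10 fell, beside 35.1% and 35.9% of all tested genes, with a median of -0.23. SFN, a 14-3-3 protein of the family that binds phosphorylated keratins, fell from 80.3 ± 2.83 to 17.8 ± 0.125 CPM (log2 fold change -2.18, adjusted p = 2.61e-29). HSPA8, the constitutive Hsc70 chaperone, fell from 721 ± 7.91 to 205 ± 2.80 CPM (-1.82, adjusted p = 1.15e-33), and the protease CASP6, which cleaves KRT18 in apoptosis, had -0.74 (adjusted p = 6.88e-10). OGT, the enzyme that adds O-GlcNAc to proteins, KRT8 and KRT18 among them, rose from 216 ± 3.57 to 513 ± 8.32 CPM (1.25, adjusted p = 1.50e-28). CSNK1A1 (0.48, adjusted p = 1.86e-13) and PNN (0.45, adjusted p = 1.76e-13) rose too.

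Of 15 other intermediate filament genes, 4 were tested and were called lower, against 35.9% of all tested genes. NES, the nestin gene (log2 fold change -2.34, adjusted p = 3.79e-17), entered the test through the controls only, being under RPKM 1 in both VIRMA-overexpressing libraries, so nothing is read from the count or median of this list. The B-type lamins LMNB1 (-1.33, adjusted p = 1.52e-23) and LMNB2 (-1.11, adjusted p = 2.67e-25), which line the nucleus and do not pair with keratins, fell. Of 26 genes of epithelial junctions and identity, 24 were tested, of which 11 rose and 8 fell, beside 35.1% and 35.9% of all tested genes, with a median of 0.05. With upper-quartile factors or library totals, 4 of them fell, and the share of all genes called lower under those scalings is not given here. ESRP1, an epithelial splicing regulator, rose from 21.7 ± 0.204 to 45.5 ± 0.521 CPM (1.07, adjusted p = 1.08e-18), ELF3, an epithelial transcription factor, had 0.57 (adjusted p = 4.34e-19) and MUC1 0.62 (adjusted p = 8.73e-13). The cell surface protein EPCAM fell (-0.39, adjusted p = 4.43e-12), as did the transcription factors GRHL3 (-0.35, adjusted p = 0.00155) and OVOL1 (-0.30, adjusted p = 5.57e-05).

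**Figure D5:**
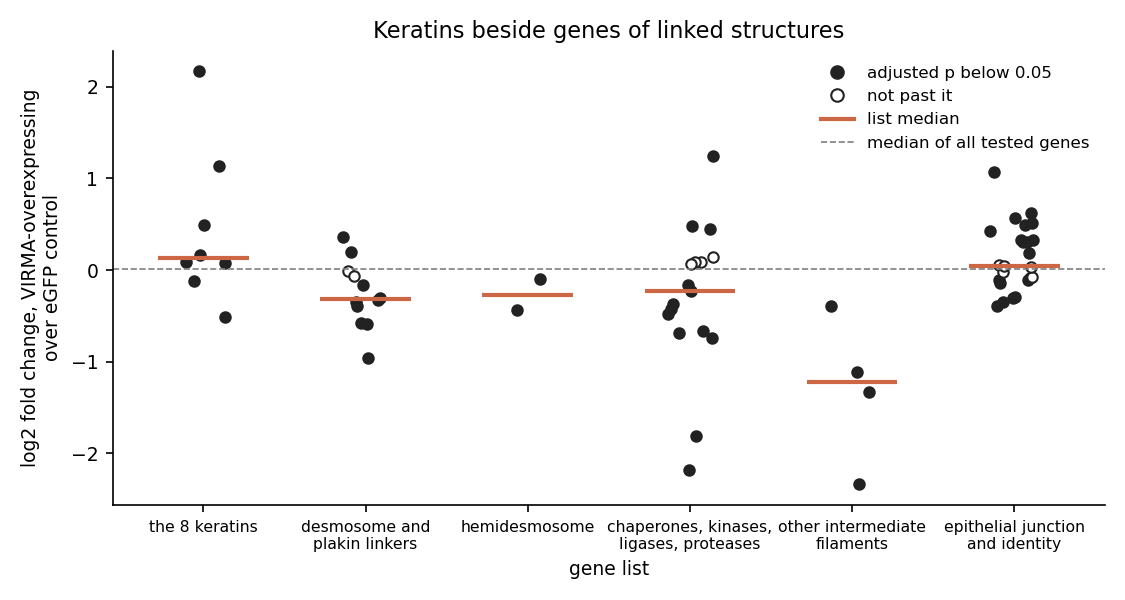
Points are log2 fold changes of the tested genes of each list, filled where the adjusted p was below 0.05, with the list median in orange and the median of all tested genes dashed. The 8 keratins spread from -0.51 to 2.17, and the list of other intermediate filament genes includes NES, at -2.34, which entered the test through the controls only.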

How the data were processed

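The authors prepared poly-A libraries with a stranded TruSeq kit, trimmed reads with Trimmomatic 0.39, aligned with STAR 2.5.2a and tallied genes with featureCounts. What the authors deposited is a table of raw counts, with exon coordinates and exonic lengths on hg38 (the submitters' processing notes also list GRCm38). Strand setting and treatment of reads with several alignments are not given in the sources used here. The columns assigned to VIRMA-overexpressing cells are named only by a number and were matched as the group left over. 0 columns of per-sample values were left out.

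RPKM was computed from deposited counts, library totals and exonic lengths. Tested were 12205 genes at RPKM above 1 in 2 or more of 4 libraries, by edgeR 4.0.16 (R 4.3.3; quasi-likelihood test, TMM, group alone, Benjamini-Hochberg). SE is the log2 fold change divided by the square root of F. The biological coefficient of variation was 3.93%. Same-numbered libraries did not deviate together (correlation 0.035). The members and lists were chosen with earlier results of these data known. Named are the 8 keratins, other keratins tested, 7 marker keratins, rows overlapping their exons, and up to 3 called genes per direction of each list. Sequences came from the GRCh38 genome with GENCODE v44, matched by symbol. Alternatives were DESeq2 1.42.0, limma-voom (limma 3.58.1), 3 scalings, 3 filters, a replicate block, leaving out each library, and other ratio definitions.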

Additional observations from a re-analysis of the deposited data

How the results depend on the processing

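KRT7, KRT8, KRT80, KRT81 and KRT86 kept direction and call under DESeq2, limma-voom, each scaling, each filter, the replicate block and each library left out, and no tested keratin changed sign. KRT15 was called lower with filterByExpr (log2 fold change -0.15, adjusted p = 0.0369). At the adjusted p alone, 6 keratins were higher and 2 lower. The number higher was 5 with DESeq2 and without the first control, and 4 with each other filter and without the second VIRMA-overexpressing library. With library totals 1 of the 8 was lower. Of the 55 keratin genes, 13 were tested in the main test and 4 were lower, where 35.9% of all tested genes were called lower. The number was 11 with filterByExpr and 9 with no filter or with at least 10 counts in every library, where more scarce genes were tested. With upper-quartile factors or library totals, 5 genes linked to keratin handling were higher in place of 3, 1 hemidesmosome gene was lower in place of 2, and 4 epithelial junction genes were lower in place of 8. These scalings shifted the median of all genes by 0.07 and 0.09, and the 3 other filters, with scaling refitted, shifted it by -0.030 to -0.044. The shares of all genes called under those scalings and filters are not given here, so such counts are not read as changes of the lists. With each library left out, 1 to 2 hemidesmosome genes were lower. The type II to type I log2 ratio was higher by 0.41, by 0.072 as a ratio of counts, by 0.071 with canonical lengths (chosen after seeing the data) and by 0.004 without KRT81 and KRT86, and was -0.59 for KRT8 to KRT18 alone. Leaving out each library gave 0.39 to 0.43. Same-numbered libraries shared only a number: with the replicate block, 6 of the 8 keratins were higher and 2 lower, 2 of them past both thresholds, as without it. With 2 libraries a group, the smallest exact permutation p is 0.333, and KRT86, KRT83 and the untested keratins are limited by low counts. In a fit without 1 library, the lone library was assumed to vary like the other group.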
